A study of Mus musculus with 8 samples.

Results

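The genes described here encode splicing factors and the RNA-binding proteins that set splicing patterns in muscle. Members were taken by symbol from the deposited gene table: the SR proteins (Srsf genes, Tra2a and Tra2b), the hnRNP proteins, U2AF, the SF3a and SF3b subunits, the Snrp genes, the Prpf genes, and the Mbnl, Celf and Rbfox families with Rbm20 and Rbm24. The name patterns matched 90 of 53819 symbols, 85 of which were not marked as pseudogenes (-ps), and 79 of these had a summed count of at least 80 over the 8 libraries. All 79 passed the filter on low counts and were tested. The member just inside the limit was Rbfox3, with a summed count of 90, and those just outside were Celf4 (29), Celf5 (27) and Mbnl3 (26). Celf3 had 6 counts in all, and Celf6 and Srsf12 had 0 in every mouse, where 3 counts would correspond to 0.0861 to 0.109 counts per 1000000 (CPM). One member, Snrpert, is annotated by RefSeq as a pseudogene.

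Messenger RNA was measured in the quadriceps of wild-type C57BL/6J mice. The 4 tumor mice had received 500000 cells of the head and neck squamous cell carcinoma line B0092 under the skin of the neck, and the 4 control mice PBS alone. All were 8 weeks old at the start, and muscle was collected on day 36, when weight loss was about 10%. The sex of the mice is not given in the sources used here. Each library came from 1 mouse, and the line stands for this tumor type by itself.

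Splicing removes introns from the primary transcript in a complex, the spliceosome, that assembles from small nuclear ribonucleoprotein particles (snRNPs). SR and hnRNP proteins bind the transcript and favour or repress nearby splice sites, while U2AF, SF3a and SF3b mark the end of the intron and its branch point. In muscle, the MBNL, CELF, RBFOX, RBM20 and RBM24 proteins govern the exon choices that separate fetal from adult isoforms of contractile and calcium-handling proteins. Isoforms were not measured: a count sums all transcripts of a gene, and many SR protein genes also make transcripts with an extra exon that are degraded. In whole muscle, fewer cells of a type and less RNA per cell cannot be told apart.

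The libraries held 28436254 to 36139478 counts. Muscle fibre markers summed to 87066 to 173361 CPM in tumor mice and 118946 to 176384 CPM in controls, with 1 of 7 lower. Of the squamous markers, Krt5, Krt14 and Krt6a were at 0 counts throughout, Epcam and Cdh1 were under 1 CPM throughout, and the list summed to 17.4 to 38.4 CPM in tumor mice and 7.62 to 10.6 CPM in controls, with 1 of the 2 tested markers higher. Macrophage markers summed to 14.8 to 71.0 CPM in tumor mice and 20.4 to 34.3 CPM in controls with 0 of 5 changed, and endothelial markers to 58.7 to 104 CPM in tumor mice and 115 to 178 CPM in controls, with 2 of 4 lower. Neutrophil markers summed to 1.03 to 3.59 CPM in tumor mice and 0.0992 to 0.579 CPM in controls, with Ly6g at 0 throughout and the 1 tested marker higher. Smooth muscle markers summed to 14.2 to 32.2 CPM in tumor mice and 23.4 to 55.6 CPM in controls, with 1 of 3 lower. The part of these cells in the splicing gene results was not tested. T and B cell markers stayed under 1 CPM, and adipocyte markers ran from 31.1 to 624 CPM in tumor mice and from 11.6 to 766 CPM in controls. Myh4, the fastest myosin heavy chain, made up 80.3% of adult myosin heavy chain counts in tumor mouse 2 and 95.2% to 98.9% in the other tumor mice, and 64.6% in control mouse 4 and 88.5% to 98.0% in the other controls. These 2 mice therefore stood apart in fibre makeup, and counts are also given without them.

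Before the values, 5 upstream sequences show the starts of genes on which the results turn: those of Srsf5, Hnrnpul1 and Prpf40b, which rose in every fit with 1 mouse left out, and of Snrpn, the largest fall. Each is the 250 bases before a transcription start from RefSeq on build GRCm38.p6, a build other than the GRCm39 of the deposited counts, written 5′ to 3′ on the strand of the gene. Capitals mark matches to 7 promoter motifs searched on both strands: the GC box (GGGCGG), the ETS core (CCGGAAG), the CCAAT box (CCAAT), the E-box (CACGTG), the TATA box (TATAAA), the cyclic AMP response element (TGACGTCA) and the FOXO core (TGTTTAC).
Srsf5, chr12:80945249-80945498, plus strand: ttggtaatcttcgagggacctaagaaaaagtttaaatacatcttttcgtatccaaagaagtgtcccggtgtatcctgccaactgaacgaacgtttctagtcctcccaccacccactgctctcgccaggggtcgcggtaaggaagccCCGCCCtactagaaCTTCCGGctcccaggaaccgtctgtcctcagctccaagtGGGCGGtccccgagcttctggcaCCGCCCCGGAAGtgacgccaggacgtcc
Hnrnpul1, chr7:25754760-25755009, minus strand: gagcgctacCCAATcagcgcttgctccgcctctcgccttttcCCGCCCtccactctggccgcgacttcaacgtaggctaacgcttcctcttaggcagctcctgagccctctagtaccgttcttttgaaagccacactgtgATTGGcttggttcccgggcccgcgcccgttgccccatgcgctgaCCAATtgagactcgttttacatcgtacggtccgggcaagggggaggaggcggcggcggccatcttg
Prpf40b, chr15:99294991-99295240, plus strand, start 1 of 2: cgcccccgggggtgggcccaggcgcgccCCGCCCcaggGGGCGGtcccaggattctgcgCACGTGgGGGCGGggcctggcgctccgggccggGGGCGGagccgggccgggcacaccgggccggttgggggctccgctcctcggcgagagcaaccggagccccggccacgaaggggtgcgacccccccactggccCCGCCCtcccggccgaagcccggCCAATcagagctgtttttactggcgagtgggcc
Snrpn, chr7:60450178-60450427, minus strand, start 1 of 4: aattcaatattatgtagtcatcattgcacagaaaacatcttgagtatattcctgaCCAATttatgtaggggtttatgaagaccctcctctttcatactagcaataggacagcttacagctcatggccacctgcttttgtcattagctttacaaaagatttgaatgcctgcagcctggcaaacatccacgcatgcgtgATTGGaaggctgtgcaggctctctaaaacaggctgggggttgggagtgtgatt
Snrpn, chr7:60005200-60005449, minus strand, start 4 of 4: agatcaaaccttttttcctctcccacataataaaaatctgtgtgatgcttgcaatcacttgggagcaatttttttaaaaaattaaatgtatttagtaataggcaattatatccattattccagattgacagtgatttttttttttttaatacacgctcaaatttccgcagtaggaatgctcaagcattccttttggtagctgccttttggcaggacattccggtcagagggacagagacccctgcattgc

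The Srsf5 sequence held 3 GC boxes and 2 ETS cores, the last GC box overlapping an ETS core by 1 base. Hnrnpul1 had 3 CCAAT boxes and 1 GC box, and Prpf40b had 5 GC boxes, 1 CCAAT box and 1 E-box. The 2 Snrpn sequences shown were poorer in G and C, at 43.2% and 36.8% against 56.8% for Srsf5 and 79.6% for start 1 of Prpf40b. Start 1 of Snrpn held 2 CCAAT boxes and start 4 no match to any of the 7 motifs. Start 2 of Prpf40b, not shown, had 49.6% G and C, 1 CCAAT box and 0 GC boxes. Starts 2 and 3 of Snrpn, also not shown, had 46.0% and 43.2%, and start 3 held 1 TATA box. Of the 67 members in the promoter table, 45 (67.2%) had a GC box before at least 1 start, against 45.8% of protein-coding genes and 35.4% of all genes in the table. Counted by promoter, a GC box was found in 56 of the 94 promoters of members (59.6%) and in 32.7% of all promoters. An ETS core was found for 18 members (26.9%), against 10.2% of protein-coding genes, and in 23.4% of the promoters of members, against 6.91% of all promoters. A CCAAT box was found for 33 members (49.3%), against 39.5% of protein-coding genes, and in 43.6% of their promoters, against 33.8% of all promoters. For the E-box, 8 members (11.9%) compared with 7.61% of protein-coding genes, and 9.57% of their promoters with 6.02% of all promoters. The TATA box was found for 8 members (11.9%), against 13.7% of protein-coding genes, and in 8.51% of their promoters, against 12.4% of all promoters. The cyclic AMP response element was found for 3 members (4.48%), against 2.20% of protein-coding genes, and in 3.19% of their promoters, against 1.55% of all promoters. The FOXO core was found for 2 members (2.99%), against 3.04% of protein-coding genes, and in 2.13% of their promoters, against 3.17% of all promoters. Promoters of members were also richer in CpG, with a median of 19 CpG in 250 bases against 10 for protein-coding genes. A match describes letters only.

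Splicing factor transcripts took up a larger share of the counts in tumor-bearing mice. The 79 members made up 0.541%, 0.597%, 0.612% and 0.72% of counts in tumor mice 1 to 4. In control mice 1 to 4 the shares were 0.448%, 0.471%, 0.474% and 0.46%. After TMM scaling, with a factor of 1.22 for tumor mouse 4, the members summed to 5580, 6220, 6032 and 5885 CPM in tumor mice 1 to 4. The sums were 4437, 4736, 4958 and 5141 CPM in control mice 1 to 4. The mean was 5929 ± 270 CPM in tumor mice and 4818 ± 303 CPM in controls (SD, n = 4 each), and the groups did not overlap. Of the 79 members, 21 (26.6%) rose and 2 (2.53%) fell at an adjusted p under 0.05. Over all 14070 genes tested, 11.0% rose, 8.73% fell and 19.8% changed in either direction (1552 higher and 1229 lower, or 1169 higher and 1547 lower with upper-quartile scaling). None of the called members changed by 2-fold or more, and log2 fold changes ran from -0.96 to 0.88. The median log2 fold change was 0.21, against 0.00 over all genes, and 60 of 79 members lay above 0, against 50.2% of all genes. All 4 tumor mice lay above all controls for 22 members (13.5% of all genes did so) and below them for 3 (11.5% of all genes).

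**Figure D1:**
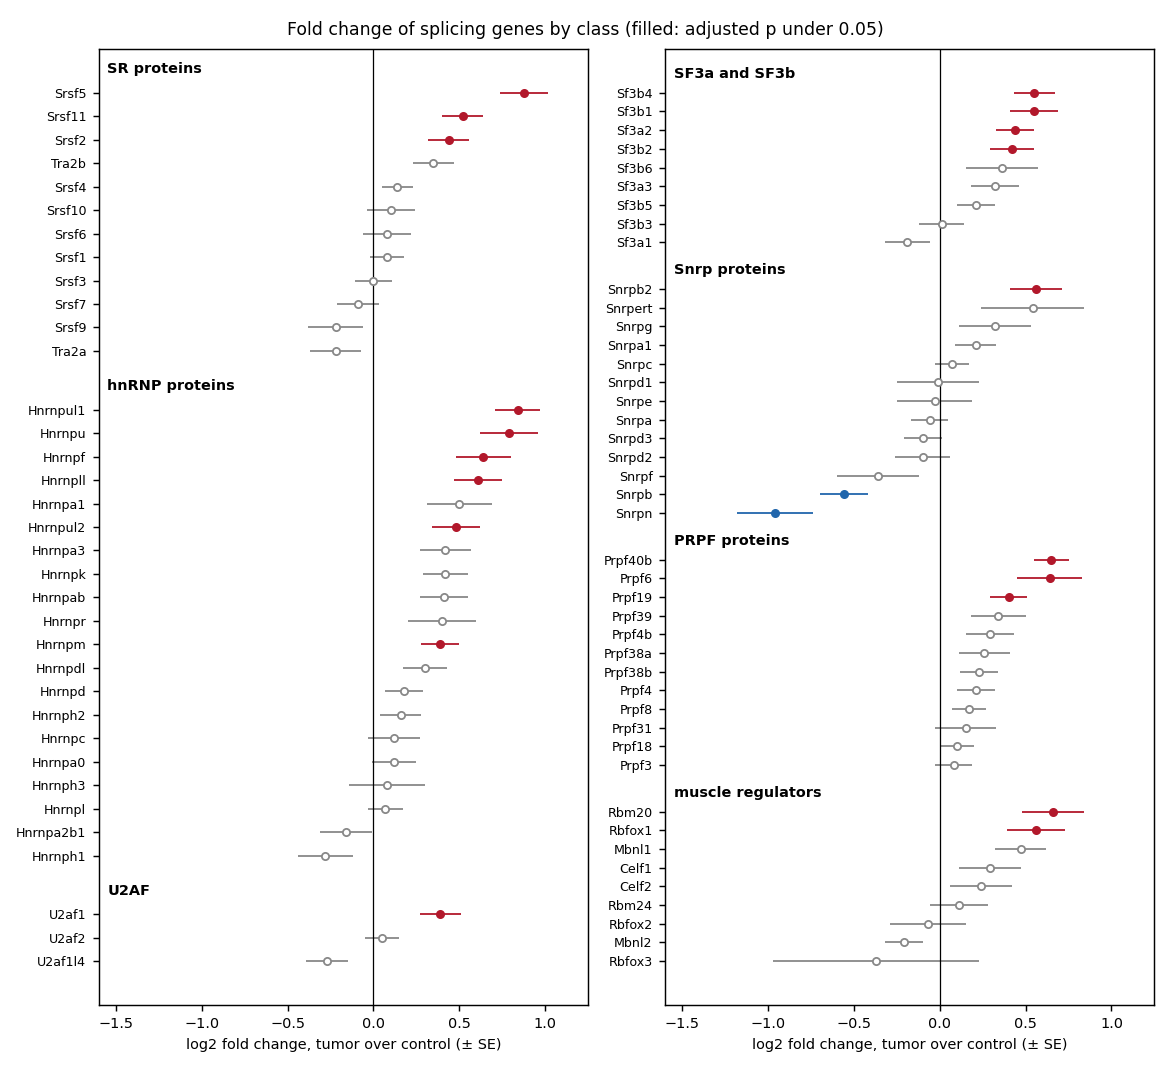
Log2 fold change (tumor over control) with its SE for the members reported by name, grouped by class; filled points passed an adjusted p under 0.05, red higher and blue lower. The rises are spread over all 7 classes, and both falls, Snrpn and Snrpb, lie among the Snrp genes.

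These counts varied with the mouse that was left out. Fits with 1 mouse left out called 4 members higher without control mouse 1, 7 without control mouse 2, 13 without control mouse 3, 5 without tumor mouse 3 and 11 without tumor mouse 2. The shares of all genes called higher also fell in these fits. Without control mouse 1, 5.06% of members and 4.40% of all genes were called higher, and without tumor mouse 3 the shares were 6.33% and 4.94%, so the members' share there was near the background. The shares were 8.86% and 5.30% without control mouse 2, 16.5% and 6.99% without control mouse 3, and 13.9% and 9.27% without tumor mouse 2. Without tumor mouse 1, 23 members (29.1%) were higher, against 10.8% of all genes. The count was 18 without control mouse 4 (22.8%, against 8.96%) and 15 without tumor mouse 4 (19.0%, against 10.5%). Without control mouse 4 and tumor mouse 2 together, the mice that stood apart in fibre makeup, 15 members (19.0%) were higher, against 10.5% of all genes. The median log2 fold change of the members was less variable, at 0.17 to 0.23 over the fits with 1 mouse left out. Hnrnpul1, Prpf40b and Srsf5 were among the members called in each of those 8 fits.

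**Figure D2:**
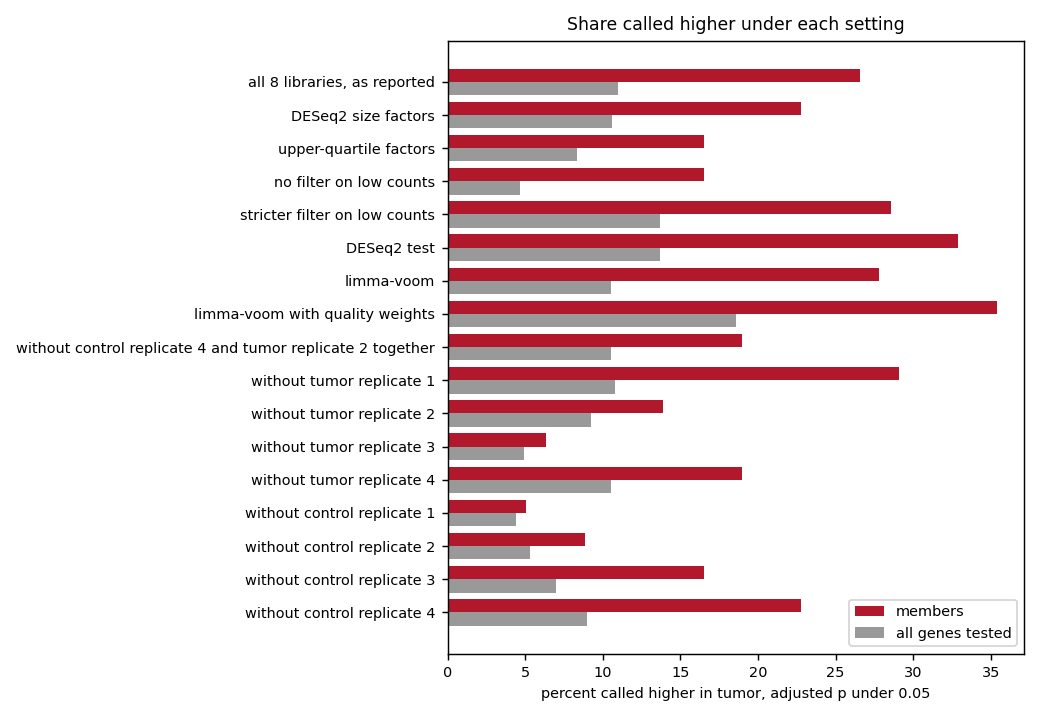
Percent of the members (red) and of all genes tested (grey) called higher in tumor mice under each setting but 1. The fit with the replicate number as a block is not drawn (10.1% of members against 7.21% of all genes). The members' share is above that of all genes with all 8 mice (26.6% against 11.0%) and close to it without control replicate 1 (5.06% against 4.40%) or tumor replicate 3 (6.33% against 4.94%).

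Among SR proteins, which bind exonic enhancers and recruit the first spliceosomal factors, 3 of 12 rose (25.0%, against 11.0% of all genes) and 0 fell. The largest rise of any member was that of Srsf5. Srsf5 stood at 187, 196, 182 and 136 CPM in tumor mice 1 to 4, against 95.4, 102, 90.0 and 94.2 CPM in control mice 1 to 4. Every tumor mouse exceeded every control, with tumor mouse 4 the lowest of its group. The rise was 1.84-fold (log2 fold change 0.88 ± 0.14, SE, adjusted p = 0.00438, edgeR). Srsf6, a close relative, showed no such difference (0.08 ± 0.14, adjusted p = 0.74), and the log2 ratio of Srsf5 to Srsf6 counts averaged 1.98 ± 0.10 in tumor mice and 1.19 ± 0.14 in controls (SD, n = 4 each).

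Srsf11, a less typical family member, had 45.7, 56.1, 55.0 and 44.0 CPM in tumor mice against 34.0, 36.0, 32.7 and 37.2 CPM in controls, 1.43-fold higher (0.52 ± 0.12, adjusted p = 0.0161). Srsf2, also known as SC35 and a marker of nuclear speckles, had 58.3, 73.2, 67.0 and 77.1 CPM in tumor mice against 46.1, 48.0, 56.2 and 52.4 CPM in controls (1.36-fold, 0.44 ± 0.12, adjusted p = 0.0339). The groups of both genes were separate. Exons of Mettl23 and Mfsd11 lie on the opposite strand over 25.3% of the annotated Srsf2 exon bases, and the strand setting of the counting is not given, so its value is less certain. The Srsf11 call was lost without tumor mouse 3 or control mouse 1 (adjusted p from 0.0580 to 0.0614). That of Srsf2 was lost without tumor mice 2, 3 or 4 or control mice 1, 2 or 4 (adjusted p from 0.0541 to 0.110). Tra2b, an enhancer-binding relative of the family, did not pass although its groups were separate, at 32.8 to 42.5 CPM in tumor mice and 26.3 to 32.2 CPM in controls (0.35 ± 0.12, adjusted p = 0.0656). It passed without tumor mouse 4 (adjusted p = 0.0405). The other 8 SR genes had log2 fold changes from -0.22 (Tra2a and Srsf9) to 0.14 (Srsf4). The class count was 1 without tumor mouse 3 (4.94% of all genes rose) or control mouse 1 (4.40%).

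**Figure D3:**
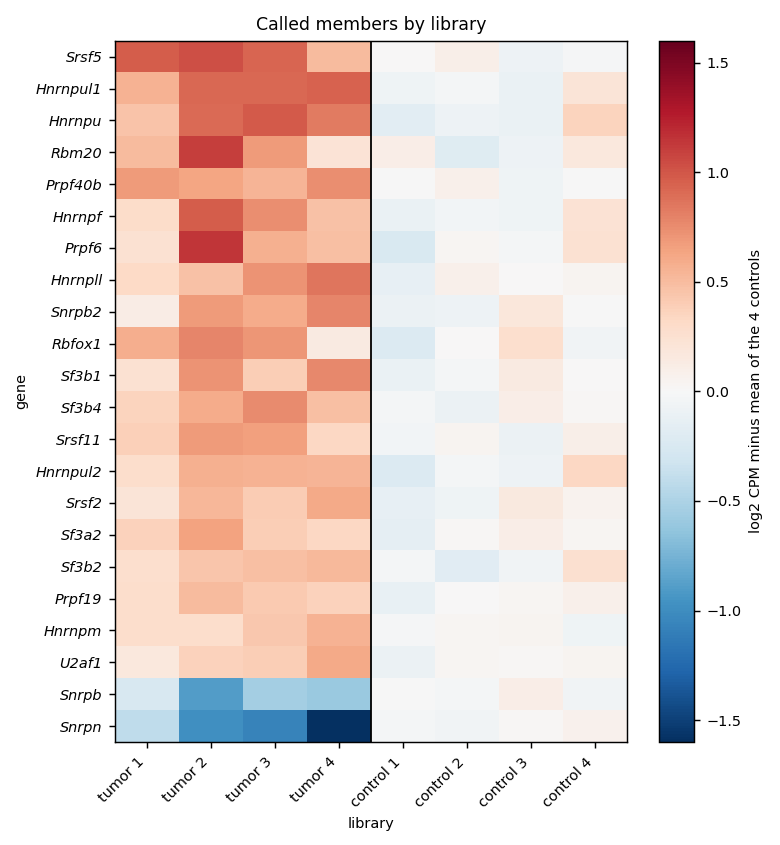
Log2 CPM of called members in each mouse, minus the mean of the 4 controls (colour scale), with tumor mice left of the line. The rises are present in all 4 tumor mice to differing degrees, and Snrpn is lowest in tumor mouse 4.

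The hnRNP proteins, a diverse group that coats nascent transcripts and often represses exons, had the most called members, with 6 of 20 higher (30.0%, against 11.0%) and 0 lower. The class median was 0.39, and 18 of the 20 lay above 0. Hnrnpul1, a relative of hnRNP U that takes part in RNA processing and the DNA damage response, had 160, 206, 205 and 209 CPM in tumor mice 1 to 4 against 103, 106, 101 and 125 CPM in control mice 1 to 4. It rose 1.79-fold (0.84 ± 0.13, adjusted p = 0.00474), and its groups were well apart. Hnrnpu itself, a nuclear scaffold protein that binds chromatin and RNA, had 228, 310, 328 and 293 CPM in tumor mice against 147, 156, 154 and 212 CPM in controls. The rise was 1.73-fold (0.79 ± 0.17, adjusted p = 0.0122) and lay just past the threshold without control mouse 1 (adjusted p = 0.0510). Control mouse 4, with the lowest Myh4 share, had the highest Hnrnpu and Hnrnpul1 levels among controls. The part of fibre makeup in these values was not tested.

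Hnrnpll, known from the splicing of the leukocyte antigen CD45 in T cells, had 21.7, 24.1, 28.5 and 31.5 CPM in tumor mice against 15.9, 18.4, 17.4 and 17.9 CPM in controls (1.52-fold, 0.61 ± 0.14, adjusted p = 0.0157). Hnrnpf, which binds runs of G, had 70.3, 112, 96.3 and 79.1 CPM in tumor mice against 53.2, 55.5, 54.5 and 67.3 CPM in controls (1.55-fold, 0.64 ± 0.16, adjusted p = 0.0249). All tumor mice were above all controls for both genes. The Hnrnpll call was lost without tumor mouse 3 or control mouse 1 (adjusted p from 0.0549 to 0.0613), and that of Hnrnpf without tumor mouse 3 or control mice 1, 2 or 3 (adjusted p from 0.0633 to 0.0829). Opposite-strand exons cover 26.5% of the Hnrnpf exon bases. The paralog Hnrnph1, which binds similar G runs, had 69.0 to 109 CPM in tumor mice and 93.4 to 114 CPM in controls, with a log2 fold change of -0.28 ± 0.16 (adjusted p = 0.246). The log2 ratio of Hnrnpf to Hnrnph1 counts was -0.64, 0.70, 0.42 and -0.20 in tumor mice 1 to 4, above each of the 4 controls (-0.99 to -0.76).

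Hnrnpm and Hnrnpul2 completed the hnRNP calls, at 1.31-fold (0.39 ± 0.11, adjusted p = 0.0329) and 1.39-fold (0.48 ± 0.14, adjusted p = 0.0444). Each lost its call without 6 of the 8 mice. These were tumor mice 3 or 4 or any control for Hnrnpm (adjusted p from 0.0580 to 0.0999), and tumor mice 2, 3 or 4 or control mice 1, 2 or 3 for Hnrnpul2 (adjusted p from 0.0714 to 0.136). Both also missed the threshold with upper-quartile scaling, and exons of March2 on the same strand overlap 14.7% of Hnrnpm. Hnrnpk (0.42 ± 0.13, adjusted p = 0.051), Hnrnpab (0.41 ± 0.14, adjusted p = 0.0616), Hnrnpa3 (0.42 ± 0.15, adjusted p = 0.071) and Hnrnpa1 (0.50 ± 0.19, adjusted p = 0.0903) lay close outside it. Hnrnpk and Hnrnpab passed without tumor mouse 1 (adjusted p = 0.0218 and 0.0486), Hnrnpa3 without tumor mouse 1 or control mouse 4 (adjusted p = 0.0301 to 0.0490) and Hnrnpa1 without control mouse 4 (adjusted p = 0.0474). Several hnRNP genes, Hnrnpa1 and Hnrnpa3 among them, have processed pseudogene copies, and shared reads make their values less certain. Over the fits with 1 mouse left out, the class count ran from 1 (without control mouse 1) to 9 (without tumor mouse 1). In these 2 fits, 4.40% and 10.8% of all genes rose. The count was 2 without tumor mouse 3 (4.94% of all genes) and 3 without control mouse 2 (5.30%) or 3 (6.99%).

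Of the factors that define the 3′ splice site, 4 of 9 SF3a and SF3b genes rose (44.4%, against 11.0%) and 0 fell, with a median of 0.36. Sf3b1, whose product clasps the branch point and is mutated in some blood cancers, had 88.0, 122, 97.3 and 126 CPM in tumor mice 1 to 4 against 68.7, 72.4, 81.6 and 74.2 CPM in controls (1.46-fold, 0.55 ± 0.14, adjusted p = 0.0263). Sf3b4, which contacts RNA upstream of the branch point, had 13.2, 15.6, 17.5 and 14.4 CPM in tumor mice against 10.1, 9.66, 11.2 and 10.5 CPM in controls (1.47-fold, 0.55 ± 0.12, adjusted p = 0.0149). Both had separate groups. Sf3a2 had 35.5 to 44.1 CPM in tumor mice and 25.3 to 30.1 CPM in controls (1.36-fold, 0.44 ± 0.11, adjusted p = 0.0252). Sf3b2 had 120, 136, 139 and 143 CPM in tumor mice against 97.8, 88.4, 96.4 and 120 CPM in controls (1.34-fold, 0.42 ± 0.13, adjusted p = 0.0449), where tumor mouse 1 and control mouse 4 were nearly level. Opposite-strand exons of Plekhj1 cover part of Sf3a2 (16.1% of exon bases). Sf3a1, a further SF3a subunit, lay below 0 and did not pass (-0.19 ± 0.13, adjusted p = 0.325), and Sf3b3 was level (0.01 ± 0.13, adjusted p = 0.971).

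Each of these 4 calls was lost in some fits with 1 mouse left out. The class count was 0 without tumor mouse 3 (4.94% of all genes rose), control mouse 1 (4.40%) or control mouse 2 (5.30%). Without tumor mouse 3 or control mice 1 or 2, the calls of Sf3b4 (adjusted p from 0.0541 to 0.0567) and Sf3a2 (adjusted p from 0.0641 to 0.0892) were lost. Those of Sf3b1 and Sf3b2 were lost in the same fits and without tumor mice 2 or 4, that of Sf3b2 also without control mouse 3 (adjusted p from 0.0517 to 0.0886 for Sf3b1 and from 0.0759 to 0.131 for Sf3b2). The class count was 2 without tumor mouse 2 (9.27% of all genes) or 4 (10.5%). U2af1, which reads the AG at the intron end, had 29.1, 33.6, 34.2 and 39.6 CPM in tumor mice against 24.3, 26.6, 26.3 and 26.8 CPM in controls (1.31-fold, 0.39 ± 0.12, adjusted p = 0.0409). Its call was held without tumor mouse 1 and lost without any other mouse (adjusted p from 0.0646 to 0.125). Its partner U2af2, which binds the pyrimidine tract, was level (0.05 ± 0.10, adjusted p = 0.771). U2af1l4, a paralog of U2af1, was at -0.27 ± 0.12 on the log2 scale (adjusted p = 0.156), and other genes overlap 66.1% of its exon bases.

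The Snrp genes encode the Sm ring and proteins of the U1 and U2 particles, and their pattern differed in sign between members. Of 13, 1 rose (7.69%, against 11.0%) and 2 fell (15.4%, against 8.73%), with a median of -0.03. Snrpn showed the largest fall of any member. It is an imprinted gene read from the paternal copy, whose product SmN can replace SmB in the Sm ring. Snrpn had 33.0, 22.1, 20.9 and 13.8 CPM in tumor mice 1 to 4, against 42.7, 42.2, 44.2 and 46.0 CPM in control mice 1 to 4. The controls lay within 4 CPM of each other, while the tumor mice spread from 13.8 to 33.0 CPM. The fall was 1.95-fold (log2 fold change -0.96 ± 0.22, adjusted p = 0.0170).

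Snrpb, which encodes SmB itself, had 52.2, 33.8, 42.9 and 41.3 CPM in tumor mice against 62.3, 61.2, 67.2 and 60.0 CPM in controls, 1.47-fold lower (-0.56 ± 0.14, adjusted p = 0.0223). The groups of both Sm genes were separate. Tumor mouse 1 had the smallest fall in each, tumor mouse 4 the largest for Snrpn and tumor mouse 2 for Snrpb. The log2 ratio of Snrpn to Snrpb counts averaged -0.97 ± 0.44 in tumor mice and -0.52 ± 0.10 in controls (SD, n = 4 each), where tumor mice 1 and 2 (-0.67 and -0.61) lay close to the lowest control (-0.61). Snurf and Gm38393 share exons with Snrpn on the same strand (34.1% of exon bases overlapped in all, Gm18908 on the opposite strand included), and Snrpn and Snrpb have similar coding sequences, so division of reads among them is uncertain. The Snrpn call was lost without tumor mouse 3 or control mouse 1 (adjusted p from 0.0504 to 0.0600), and that of Snrpb without tumor mouse 3 or control mice 1, 2 or 3 (adjusted p from 0.0566 to 0.0681). In those fits the log2 fold change of Snrpn kept its sign, and over the 8 fits it ran from -1.21 to -0.80, and that of Snrpb from -0.67 to -0.49.

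Snrpb2, a protein of the U2 particle and not a copy of Snrpb, moved the other way. It had 13.9, 20.5, 19.3 and 21.9 CPM in tumor mice against 12, 12.1, 14.5 and 12.8 CPM in controls (1.48-fold, 0.56 ± 0.15, adjusted p = 0.0325), with tumor mouse 1 inside the control range. Its call held without tumor mouse 1 or control mouse 3 and was lost without each of the other 6 (adjusted p from 0.0618 to 0.0995). The Sm ring genes Snrpd1, Snrpd2, Snrpd3, Snrpe, Snrpf and Snrpg had log2 fold changes from -0.36 to 0.32, and 0 of the 6 passed. Snrpf passed as lower without tumor mouse 4 (-0.65, adjusted p = 0.0334). Other genes overlap 85.4% of its exon bases.

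Among the PRPF proteins, which serve the U1, U4/U6.U5 and catalytic stages of splicing, 4 of 13 rose (30.8%, against 11.0%) and 0 fell, and all 13 log2 fold changes were above 0. Prpf40b encodes a U1-associated factor that helps bridge the intron. It had 38.0, 36.7, 34.5 and 39.8 CPM in tumor mice 1 to 4 against 23.6, 25.0, 22.6 and 23.7 CPM in controls, 1.57-fold higher (0.65 ± 0.10, adjusted p = 0.00403). This was the smallest p of any member, and the spread within groups was small (37.2 ± 2.22 CPM in tumor mice and 23.7 ± 0.993 CPM in controls, SD, n = 4 each).

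Prpf19, a ubiquitin ligase of the catalytic spliceosome, had 202, 236, 223 and 214 CPM in tumor mice against 152, 167, 170 and 176 CPM in controls (1.32-fold, 0.40 ± 0.11, adjusted p = 0.0350). Prpf6, which links the U5 and U4/U6 particles, had 50.7, 94.3, 63.3 and 59.9 CPM in tumor mice against 36.1, 43.9, 41.7 and 50.7 CPM in controls (1.56-fold, 0.64 ± 0.19, adjusted p = 0.0459). Tumor mouse 1 and control mouse 4 were level for Prpf6 to the digits given, and tumor mouse 2 stood above the rest. The Prpf19 call was lost without tumor mice 2 or 3 or control mice 1, 2 or 3 (adjusted p from 0.0737 to 0.121). For Prpf6 the call was lost in those fits and without tumor mouse 4 (adjusted p from 0.0559 to 0.133), and its log2 fold change was between 0.40 and 0.75 over the 8 fits. Prpf8, the largest protein of the catalytic core, had separate groups (134 to 149 CPM in tumor mice and 123 to 130 CPM in controls) with a small difference (0.17 ± 0.10, adjusted p = 0.256). The class count was 2 without tumor mice 2 or 3 or control mice 1, 2 or 3. In these fits, 4.40% to 9.27% of all genes rose.

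Among the muscle splicing regulators, 2 of 9 rose (22.2%, against 11.0%) and 0 fell. Rbm20 encodes the repressor of titin exons whose mutation causes dilated cardiomyopathy. It had 101, 153, 114 and 82.9 CPM in tumor mice 1 to 4 against 76.4, 62.1, 67.3 and 79.7 CPM in control mice 1 to 4, 1.58-fold higher (0.66 ± 0.18, adjusted p = 0.0353). Tumor mouse 2, with the lowest Myh4 share of its group, was the highest, and tumor mouse 4 was only just above control mouse 4. Without tumor mouse 2 the log2 fold change was 0.44, the lowest of the 8 fits. The call was lost without tumor mice 2 or 3 or control mice 1, 2 or 3 (adjusted p from 0.0653 to 0.0990).

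Rbfox1, the family member of muscle, heart and brain, had 336, 386, 366 and 247 CPM in tumor mice against 192, 225, 272 and 217 CPM in controls, 1.47-fold higher (0.56 ± 0.17, adjusted p = 0.0465). Tumor mouse 4 lay below control mouse 3, so the groups overlapped. The call held without tumor mouse 4 or control mouse 3 and was lost without each of the other 6 (adjusted p from 0.0727 to 0.140), with upper-quartile scaling (adjusted p = 0.0691) and without control mouse 4 and tumor mouse 2 together (adjusted p = 0.122). Rbfox2, the widely expressed paralog, had 39.3, 38.7, 41.2 and 73.7 CPM in tumor mice against 44.7, 46.0, 50.6 and 61.1 CPM in controls (-0.07 ± 0.22, adjusted p = 0.852). Its tumor values were below all controls in mice 1 to 3 and above them in mouse 4. Rbfox3, the neuronal nuclear antigen NeuN, was near the limit of detection at 0.26 to 0.36 CPM in tumor mice and 0.07 to 0.79 CPM in controls. The log2 ratio of Rbfox1 to Rbfox2 counts was 3.09, 3.32 and 3.15 in tumor mice 1 to 3 and 1.75 in tumor mouse 4, against 1.83 to 2.42 in controls.

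Mbnl1 and Mbnl2, whose proteins promote adult splicing patterns and are sequestered by the repeat RNA of myotonic dystrophy, lay on opposite sides of 0, and neither passed. Mbnl1 had 486, 477, 510 and 384 CPM in tumor mice against 284, 343, 397 and 316 CPM in controls (1.39-fold, 0.47 ± 0.15, adjusted p = 0.0546). Only tumor mouse 4 fell inside the control range, and without it Mbnl1 passed (adjusted p = 0.0305). It also passed with DESeq2 (adjusted p = 0.0113) and limma-voom (adjusted p = 0.0480). Mbnl2 had 167, 180, 178 and 185 CPM in tumor mice against 195, 221, 195 and 212 CPM in controls, so that all tumor values were below all controls, but the difference was small (-0.21 ± 0.11, adjusted p = 0.190). The log2 ratio of Mbnl1 to Mbnl2 counts was 1.54, 1.41, 1.52 and 1.05 in tumor mice 1 to 4, against 0.54, 0.63, 1.03 and 0.58 in control mice 1 to 4. The ratio was higher in every tumor mouse than in any control, with tumor mouse 4 and control mouse 3 nearly level. These ratios were chosen after the values were seen and are given without a test.

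**Figure D4:**
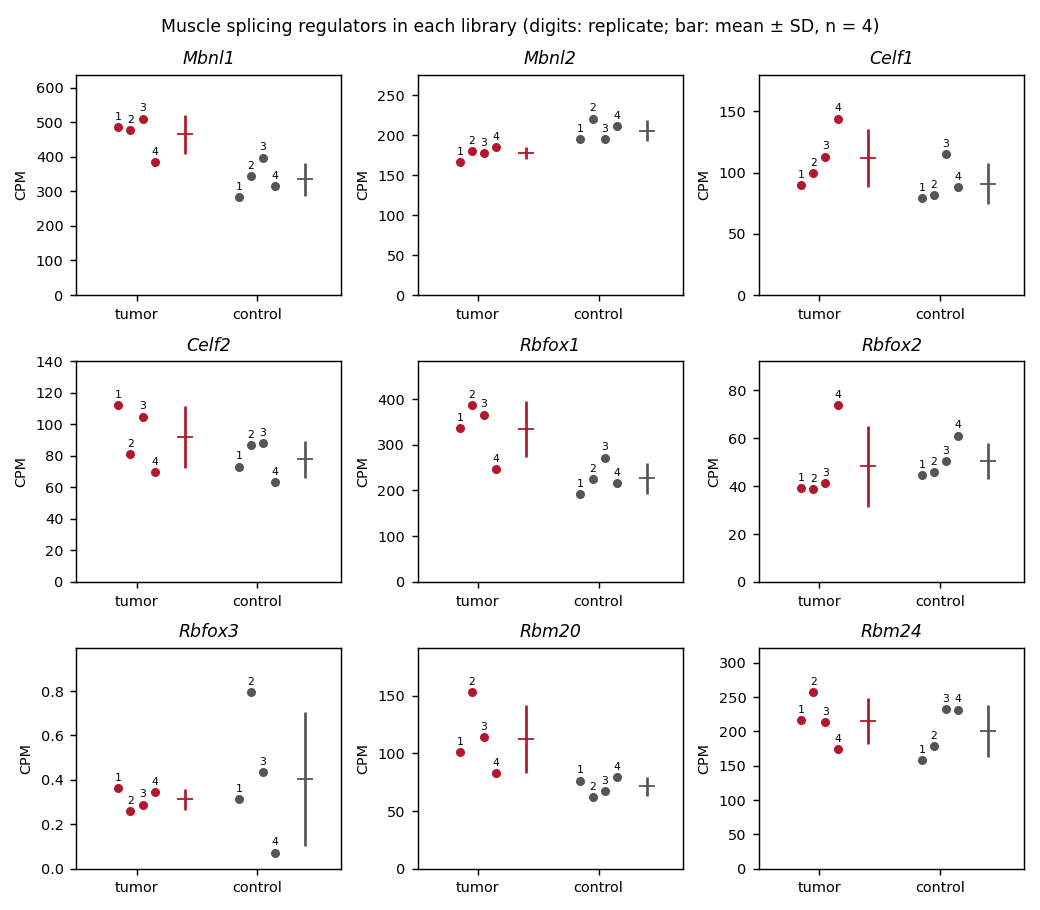
Level in CPM of the 9 muscle splicing regulators in each mouse, tumor left of control, with the replicate number beside each point and the mean ± SD (n = 4) as a bar. Rbm20 and Mbnl2 have separate groups, and tumor mouse 4 departs from the other tumor mice for Mbnl1, Rbfox1, Rbfox2 and Celf1.

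Celf1, which opposes MBNL proteins on many shared exons and favours fetal patterns, had 89.7, 99.6, 113 and 144 CPM in tumor mice against 79.1, 81.6, 115 and 88.1 CPM in controls (0.29 ± 0.18, adjusted p = 0.274). The log2 ratio of Mbnl1 to Celf1 counts was 1.42 to 2.44 in tumor mice and 1.79 to 2.07 in controls, with overlapping groups. Celf2 had 69.9 to 112 CPM in tumor mice and 63.6 to 88.1 CPM in controls (0.24 ± 0.18, adjusted p = 0.372). Rbm24, a muscle factor that supports sarcomere exons, had 174 to 257 CPM in tumor mice and 158 to 233 CPM in controls (0.11 ± 0.17, adjusted p = 0.704). The groups of all 3 genes overlapped. Without tumor mouse 3, control mouse 1 or control mouse 2, and likewise without tumor mouse 2, 0 of the 9 muscle regulators were called. Without tumor mouse 4, 3 were called (Mbnl1, Rbfox1 and Rbm20). Without tumor mouse 1, control mouse 3 or control mouse 4 the count was 1. Over these 8 fits, the share of all genes called higher ran from 4.40% (without control mouse 1) to 10.8% (without tumor mouse 1).

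The libraries also differed in how they ranked within their group. Tumor mouse 4 was the highest tumor mouse for 31 of the 79 members, tumor mouse 2 for 26, tumor mouse 1 for 13 and tumor mouse 3 for 9. Over all genes, the corresponding shares were 29.4%, 30.8%, 25.2% and 14.7% for mice 4, 2, 1 and 3. Among controls, mouse 4 was highest for 35 members, mouse 3 for 22, mouse 2 for 14 and mouse 1 for 8. Over all genes, the shares were 35.0%, 28.2%, 20.8% and 16.0% for control mice 4, 3, 2 and 1. Control mouse 1 was the lowest control for 31 members, and tumor mouse 1 the lowest tumor mouse for 30. The share of all genes with their lowest value in each mouse was not counted, so these counts have no background.

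Genes of the splicing pathway outside the name patterns were counted in 5 further lists, and these too held more rises than falls. Of 173 tested genes together, 57 (32.9%) rose and 4 (2.31%) fell, against 11.0% and 8.73% of all genes. The median log2 fold change was 0.31, against 0.00 over all genes. Among 78 other spliceosome and snRNP genes, 30 (38.5%, against 11.0% of all genes) rose and 2 (2.56%, against 8.73%) fell. Zrsr2, which recognises the 3′ splice site of the rare U12-type introns, had 34.7, 46.2, 40.3 and 42.8 CPM in tumor mice 1 to 4 against 15.9, 14.7, 18.4 and 22.5 CPM in control mice 1 to 4. It rose 2.29-fold (1.2 ± 0.16, adjusted p = 0.00351), more than any of the 79 members. Sugp1, a partner of the SF3b1 protein at the branch point, rose 1.88-fold (39.1 ± 5.36 CPM in tumor mice and 20.9 ± 1.78 CPM in controls, adjusted p = 0.00374). Sart1 of the tri-snRNP rose 1.83-fold (0.87 ± 0.13, adjusted p = 0.00393). The 2 falls were those of the cap-binding gene Ncbp2 (-0.52 ± 0.11, adjusted p = 0.0123) and the spliceosomal cyclophilin gene Ppil1 (-0.78 ± 0.23, adjusted p = 0.0399). The count of rises was 16 without control mouse 1, where 4.40% of all genes rose, and 18 without control mouse 2 (5.30% of all genes) or tumor mouse 3 (4.94% of all genes).

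In a list of SR protein kinases, phosphatases and the transportin gene Tnpo3, 4 of 13 rose (30.8%, against 11.0% of all genes) and 0 fell. Clk1 and Clk4, nuclear kinases that release SR proteins from speckles, both rose. Clk1 had 44.3 to 63.7 CPM in tumor mice and 31.3 to 35.3 CPM in controls (1.61-fold, 0.69 ± 0.13, adjusted p = 0.00916). Clk4 had 36.2 to 73.9 CPM in tumor mice and 24.6 to 33.1 CPM in controls (1.95-fold, 0.96 ± 0.21, adjusted p = 0.0126), and the groups were separate for both. The Clk4 call was lost without control mouse 1 (adjusted p = 0.0505), where 2 genes of the list and 4.40% of all genes rose. The phosphatase gene Ppm1g rose 1.80-fold (0.85 ± 0.13, adjusted p = 0.00438), and Clk2 was the fourth (0.53, adjusted p = 0.0149).

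Of 17 snRNP assembly genes, 4 rose (23.5%, against 11.0% of all genes) and 0 fell. Ddx20 (Gemin3), a helicase of the SMN complex, had 13.4, 19.6, 17.9 and 17.8 CPM in tumor mice against 7.55, 8.24, 10.6 and 7.46 CPM in controls (2.03-fold, 1.02 ± 0.16, adjusted p = 0.00499). Gemin5, which recognises snRNAs for that complex, rose 1.83-fold (adjusted p = 0.00594), and Prmt5, which methylates Sm proteins, rose 1.40-fold (adjusted p = 0.0101). Of 14 exon junction and decay genes, 1 rose, Upf3b, a factor of nonsense-mediated decay (1.72-fold, 0.78 ± 0.13, adjusted p = 0.00508). That list's share of 7.14% was below the 11.0% of all genes, although 13 of its 14 log2 fold changes were above 0. It held 4 rises with DESeq2 (13.7% of all genes rose) or without tumor mouse 4 (10.5%). There were 2 without tumor mouse 1 (10.8% of all genes) or control mouse 4 (8.96%), and 6 by limma-voom with quality weights (18.6%).

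Of 51 tested genes among other splicing regulators, 18 (35.3%, against 11.0% of all genes) rose and 2 (3.92%, against 8.73%) fell. Srrm1, a coactivator that works with SR proteins, rose 1.83-fold (128 ± 23.5 CPM in tumor mice and 70.1 ± 8.43 CPM in controls, adjusted p = 0.00668). Scaf8 (1.46-fold, adjusted p = 0.00848) and Ewsr1, of the FET family of RNA-binding proteins (1.5-fold, adjusted p = 0.00935), followed. The falls were those of Rbm38 (-0.58 ± 0.12, adjusted p = 0.0123) and Khdrbs3 (-2.13 ± 0.59, adjusted p = 0.0327). Khdrbs3 had 1.32 to 5.00 CPM in tumor mice and 3.94 to 23.7 CPM in controls, highest in control mouse 4. The list held 0 falls without tumor mouse 3 and 1 without tumor mice 1 or 4 or control mice 1 or 4. It held 3 without tumor mouse 2 and 4 with upper-quartile scaling. Over these settings 480 to 1547 of all genes fell, against 1229 with all 8 mice. The count of rises was 9 with upper-quartile scaling, 5 without control mouse 1, 6 without tumor mouse 3, 8 without control mouse 2 or 3 and 10 without tumor mouse 2. In those fits the shares of all genes that rose were 8.31% with upper-quartile scaling, 4.40% without control mouse 1, 4.94% without tumor mouse 3, 5.30% and 6.99% without control mice 2 and 3, and 9.27% without tumor mouse 2.

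Transcripts known to switch exons in muscle under these regulators were compared at the level of whole genes. Of 40 tested, 3 rose and 2 fell (12.5% called, against 19.8% of all genes). Pdlim3, a Z-disc protein, rose 2.81-fold (1289 ± 573 CPM in tumor mice and 460 ± 122 CPM in controls, adjusted p = 0.0129). Nrap, a protein of myofibril assembly, rose 2.88-fold with overlapping groups (adjusted p = 0.0211), and the dystrophin gene Dmd 1.67-fold (adjusted p = 0.0217). Pdlim7 fell 1.49-fold (adjusted p = 0.0406). The slow troponin T gene Tnnt1 had 4.41, 5.91, 1.90 and 0.459 CPM in tumor mice against 51.8, 7.08, 0.637 and 685 CPM in controls (-5.88 ± 1.81, adjusted p = 0.0473), and control mouse 4 was by far the highest. The rises numbered 0 without control mouse 1, 1 without tumor mouse 3 or control mice 2 or 3 and 5 without tumor mouse 4. Over all genes, 4.40% rose without control mouse 1 and 4.94% without tumor mouse 3. The shares were 5.30% and 6.99% without control mice 2 and 3, and 10.5% without tumor mouse 4. The falls numbered 0 without tumor mouse 3 or control mouse 1 and 1 without tumor mice 2 or 4 or control mouse 2. With upper-quartile scaling there were 6. Over all genes, falls numbered 1229 with all 8 mice, 480 without control mouse 1 and 482 without tumor mouse 3. They numbered 1450 and 1147 without tumor mice 2 and 4, 613 without control mouse 2 and 1547 with upper-quartile scaling.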

How the data were processed

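Polyadenylated RNA libraries of the quadriceps of 8 mice were sequenced, with a Qiagen RNeasy extraction and a Nugen/Tecan Universal Plus kit per the labels' protocols. The authors deposited estimated counts, 1 table over 53819 symbols, in which 9% of values were not whole. The submitters' processing notes name Salmon 1.10.1, STAR 2.7.9a, cutadapt 3.4, Trim Galore 0.6.7 and R 4.2.2, and build GRCm39. The sources used here do not give their roles, the annotation or the strand setting. Because an estimated count divides reads that match several genes, values of paralogs and overlapping genes are less certain.

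Counts were rounded to whole numbers. Genes were kept by filterByExpr (minimum count 10), which left 14070 genes with 99.92% of counts, and were scaled by TMM. Tumor mice were compared with controls by the quasi-likelihood F test of edgeR (version 4.0.16 in R 4.3.3), two-sided, with group as the only term. Adjusted p-values are by the Benjamini-Hochberg method over all genes tested, with a threshold of 0.05. Fold changes are tumor over control, and each SE is the size of the log2 fold change over the root of its F value. CPM are scaled by TMM, and means and SDs are over 4 mice. Exon overlaps were matched by symbol to GENCODE vM21. Promoters are from RefSeq (67 of 79 members), and motif searches covered the 250 bases before each start. No pair of libraries within a group agreed within counting error.

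The members, lists and tests were chosen with earlier results of these data known. Named genes were all muscle regulators, up to 4 called members of each other class with the smallest p, the largest rise and fall, and up to 3 called genes of each further list. Others named were chosen after their values were seen. One member is counted but not reported here by name. Alternatives covered scaling, the filter, the test (DESeq2 1.42.0, limma-voom with limma 3.58.1), each mouse left out, and the replicate number as a block.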

Additional observations from a re-analysis of the deposited data

Results flagged for a closer look

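In groups of 4 mice, the 28 named members were searched for a mouse whose gap to its nearest neighbour, as a share of the group's range, passed Dixon's critical value for that size, which chance gives in about 1 of 20 groups. Of 56 groups, 4 met this. Rbfox2 was 73.7 CPM in tumor mouse 4, against 38.7 to 41.2 CPM in the other tumor mice. Hnrnpul1 was 160 CPM in tumor mouse 1, below the 205 to 209 CPM of the others, yet above every control. Hnrnpu was 212 CPM in control mouse 4, against 147 to 156 CPM in the other controls, and Hnrnpf was 67.3 CPM in the same mouse, against 53.2 to 55.5 CPM. Control mouse 4 had the lowest Myh4 share of the 8 mice (64.6%). Whether fibre makeup takes part in these values was not tested.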

How the results depend on the processing

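With all genes, 2781 were called, against 4982 by limma-voom with quality weights and 1110 to 2845 over the fits with 1 mouse left out. The 21 members called higher became 13 with upper-quartile scaling, 13 with no filter on low counts and 4 to 23 with 1 mouse left out, and the 2 called lower became 0 to 3. The share of members called higher was 26.6% with all 8 mice and 16.5% with either of the first 2 settings. The share of all genes was 11.0% with all 8 mice, 8.31% with upper-quartile scaling and 4.67% with no filter. It was 4.40% to 10.8% with 1 mouse left out. The median log2 fold change of 0.21 became 0.14 with upper-quartile scaling, where the median of all genes also moved, from 0.00 to -0.07. With the replicate number as a block, 8 members (10.1%) were called higher, near the 7.21% of all genes, and 2 lower, with 1932 genes called in all. Same-numbered mice did not deviate together throughout (correlations 0.03, 0.13, 0.20 and 0.02), and only tumor mice 2 and 3 correlated best with their own number, so the numbers were not taken as pairs. DESeq2 called 26 members higher (32.9%, against 13.7% of all genes) and limma-voom 22 (27.8%, against 10.5%). Reversed signs were found in genes that were not called: Rbfox3 without control mouse 2 (0.18, with a range of -0.70 to 0.18 over mice left out), Rbm24 without tumor mouse 2 (-0.02, range -0.02 to 0.19) and Rbfox2 (range -0.36 to 0.03) without tumor mouse 1 (0.02), tumor mouse 3 (0.00), control mouse 4 (0.03) or control mouse 4 and tumor mouse 2 together (0.12). Of 474 values of named members under the alternatives, 105 lost and 4 gained a call. The cause of these changes was not tested. Leaving out a mouse also leaves fewer samples, and the part of this was not tested. With 4 mice a group, differences about the size of the SEs were not detectable.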
